A study of Danio rerio with 18 samples.

Results

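Cocktail 6 was 1 of 8 pools of guide RNAs (gRNAs) tested with RfxCas13d in zebrafish, and its 2 libraries of 18 in all were compared with the 14 libraries of Cocktails 1 to 5, 7 and 8. Its members were taken from the sample titles. The series measured total RNA of whole zebrafish embryos at 4 h post-fertilisation by RNA sequencing, with 2 libraries in each of 9 groups. The submitters stated that 200 gRNAs were divided into cocktails of 25 each, with 10 pg per embryo, to ask how well computational models predict mRNA depletion in vivo. All 16 cocktail libraries were labelled as RfxCas13d knockdown, and the remaining 2 libraries as RfxCas13d control. By their labels the cocktail groups differed from one another in which gRNAs they held, and shared the nuclease, the embryo stage and the tissue. Clutch and batch are not given, so a difference in these between cocktails cannot be told apart from one in gRNAs. Which transcripts each cocktail was aimed at could not be read from the labels, and no gene is called a target here. The labels do not say whether the 2 libraries of a group came from separate clutches or injections, so p-values reflect the spread between the libraries as labelled, a spread that may be technical.

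RfxCas13d is an RNA-guided nuclease of the Cas13d family that binds and cuts RNA matching its guide, so that the gRNAs it carries set which mRNAs are lowered. The fish embryo starts life on mRNA supplied by the mother. Around the stage sampled here the maternal supply is being cleared and the embryo's own genome is being switched on, led in zebrafish by the maternal factors Pou5f3, Nanog and Sox19b. An outer epithelium (the enveloping layer) and a layer of nuclei in the yolk cell (the yolk syncytial layer) are among the earliest lineages to turn on their own genes.

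The 2 Cocktail 6 libraries held 3327797 and 3217790 reads assigned to genes, within the 2544027 to 4864939 of the whole series, and 14514 of 32520 genes were tested. Their replicates lay closest together of all 9 groups, with a correlation across genes of 0.969 against 0.849 in Cocktail 1, where they lay furthest apart. The share of reads that did not map to the genome was 21.6% and 21.7% in Cocktail 6, below all 14 other cocktail libraries (22.2% to 47.3%) and above the control (10.1% and 10.8%). The difference in means from the other cocktails was -9.27 percentage points, with an exact two-sided permutation p of 0.0167, the smallest value this test can give with 2 libraries against 14 (0.0667 after Benjamini-Hochberg adjustment over 8 such library measures). The share of multimapping reads, 3.52% and 3.53%, was above all 14 other cocktail libraries (2.13% to 3.40%) and below the control (4.27% and 4.31%), with the same p and adjusted p by the exact permutation test. The permutation takes single libraries as exchangeable, although they come in pairs from the same cocktail. These p-values therefore do not measure the spread between cocktails. Whether either share plays a part in the results below was not tested. Mitochondrial transcripts made up 9.87% ± 0.0349 (SD, n = 2) of the gene counts in Cocktail 6 and 10.2% ± 1.58 (SD, n = 14) in the other cocktails, a difference smaller than their spread.

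Cocktail 6 differed from the mean of the other cocktails in 43 genes, 8 of them lower and 35 higher. The lower genes were led by usp1, nfyc and tspan31, which were also far below the control. The higher genes held the yolk syncytial layer genes mttp, gata5 and gata6 and the enveloping layer keratin cyt1, and most of them were still below the control. Set against single cocktails, only 1 of all genes tested was higher than in at least 4 of the 7 others. A higher call against the mean is thus not a call against each cocktail. A gene was counted when the quasi-likelihood test of edgeR gave a Benjamini-Hochberg adjusted p under 0.05 and the fitted difference was at least 2-fold. That test takes its spread from libraries of the same cocktail. Its p-values therefore do not measure the spread between the other cocktails, and a gene low in only some of them can be called. The 8 lower genes were 0.0551% and the 35 higher genes 0.241% of the genes tested. At an unadjusted p under 0.05, 637 genes (4.39%) were lower and 904 (6.23%) higher. DESeq2 called 17 lower (0.124% of the 13669 genes it gave an adjusted p) and 50 higher (0.366%), among them 8 and 33 of those called by edgeR. Leaving out the first Cocktail 6 library left 2 genes lower and 4 higher, and leaving out the second left 3 lower and 2 higher. Of the other libraries, leaving out the second of Cocktail 1 gave 43 lower and 324 higher, the first of Cocktail 1 gave 12 and 79, and the first of Cocktail 3 gave 17 and 66. Without the second of Cocktail 5 there were 6 lower and 23 higher, and without the first or the second control library 6 lower each and 21 or 23 higher. The low-count filter was rerun whenever a library was left out, so those counts may rest on other genes than the main fit. In all that follows, levels are in CPM, read counts scaled to a common library size, and fold changes are fitted log2 values with their standard error (SE). For single genes, a call counted as held in an alternative analysis even where its fitted difference there was under 2-fold.

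The lower gene with the smallest p against both references was usp1 (ENSDARG00000056414), a deubiquitinating enzyme that acts on FANCD2 and PCNA in the DNA damage response. Its level was 29.0 and 26.3 CPM in the Cocktail 6 libraries. The other 14 cocktail libraries ran from 37.0 to 345 CPM with a median of 234, and the controls stood at 292 and 344 CPM. Both Cocktail 6 libraries therefore lay below every other library of the series. The log2 fold change was -2.50 (SE 0.20, edgeR adjusted p 3.79e-07) against the other cocktails and -3.52 (SE 0.24, adjusted p 1.05e-08) against the control. The calls for usp1 and nfyc against the other cocktails held in all 33 alternative analyses. Cocktail 4, at 37.0 and 40.9 CPM, and Cocktail 5, at 44.1 and 49.6 CPM, were almost as low, and Cocktail 6 was not called different from either (adjusted p 0.416 and 0.619 in edgeR). The remaining 10 cocktail libraries began at 205 CPM.

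The transcript of nfyc (ENSDARG00000070151), a subunit of the CCAAT-binding transcription factor NF-Y, stood at 22.7 and 22.9 CPM in Cocktail 6. It ranged from 32.7 to 178 CPM with a median of 114 in the other cocktails, and was 192 and 145 CPM in the controls. Again no other library was as low as the pair from Cocktail 6. For nfyc the log2 fold change was -2.12 (SE 0.23, edgeR adjusted p 2.81e-05) against the other cocktails and -2.88 (SE 0.27, adjusted p 9.96e-07) against the control. Taken cocktail by cocktail, nfyc was lower in Cocktail 6 than in 6 of the 7 others, more than any other gene. The exception was Cocktail 5, with 32.7 and 41.5 CPM, and Cocktail 4 was intermediate at 72.1 and 59.8 CPM.

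The tetraspanin tspan31 (ENSDARG00000074554), a membrane protein, was at 26.9 and 34.8 CPM in Cocktail 6, between 23.2 and 161 CPM (median 131) in the other cocktails, and at 144 and 112 CPM in the controls. Here the groups overlapped, because Cocktail 4 stood at 30.6 and 23.2 CPM. Cocktail 5 followed at 51.0 and 47.1 CPM, and 12 of the 14 other libraries lay above both Cocktail 6 libraries. The log2 fold change was -1.61 (SE 0.20, edgeR adjusted p 3.63e-04) against the other cocktails and -2.05 (SE 0.24, adjusted p 2.18e-05) against the control. With usp1 and nfyc it made up the 3 smallest p-values among all genes lower in Cocktail 6 than in the control.

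Also below both references was dap1b (ENSDARG00000109678), a relative of the human death-associated protein DAP. It was at 6.88 and 5.33 CPM in Cocktail 6, between 5.31 and 39.7 CPM (median 19.6) in the other cocktails, and at 32.9 and 33.4 CPM in the controls. Only Cocktail 5 reached as low, at 5.98 and 5.31 CPM. For this identifier the log2 fold change was -1.53 (SE 0.34, edgeR adjusted p 0.0483) against the other cocktails and -2.43 (SE 0.40, adjusted p 5.67e-04) against the control. The first of these 2 calls was close to the threshold and held in 12 of 33 alternative analyses. The files give the name dap1b to another identifier too, ENSDARG00000086842, which took most of the reads. That entry was at 123 and 141 CPM in Cocktail 6, 66.6 to 147 CPM (median 102) in the other cocktails and 128 and 148 CPM in the controls, and did not pass the test (log2 fold change 0.37, edgeR adjusted p 0.553). Summed over both identifiers, dap1b was at 130 and 146 CPM in Cocktail 6, inside the 91.9 to 179 CPM of the other cocktails, so the low value belongs to the less abundant entry, and how the authors' counting divided reads between the entries was not tested.

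Cocktail 6 also held less of rnf128a (ENSDARG00000016867), an E3 ubiquitin ligase whose mammalian relative is known from T cells. The 2 libraries stood at 57.1 and 68.3 CPM, against 19.8 to 282 CPM (median 158) in the other cocktails and 129 and 107 CPM in the controls. Cocktail 4 was lower still, at 27.7 and 19.8 CPM, and Cocktail 6 was called higher than it and lower than 5 other cocktails. The log2 fold change was -1.06 (SE 0.20, edgeR adjusted p 0.0166) against the other cocktails. Against the control it was -0.91 (SE 0.25, adjusted p 0.0256), short of 2-fold.

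The other 3 lower genes were above the control in all 14 other cocktail libraries. In Cocktail 6, ube2al was at the control level, while slf1 and si:dkeyp-98a7.3 were below both controls at low counts, with control means 1.65 and 2.58 times those of Cocktail 6 and no call against the control. The level of ube2al (ENSDARG00000003017), a ubiquitin-conjugating enzyme, was 152 and 163 CPM in Cocktail 6, 242 to 502 CPM (median 339) in the other cocktails, and 160 and 145 CPM in the controls. All 14 other cocktail libraries exceeded it, while the 2 control libraries fell beside it. For ube2al the log2 fold change was -1.09 (SE 0.20, edgeR adjusted p 0.0155) against the other cocktails and 0.05 (SE 0.25) against the control.

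The gene slf1 (ENSDARG00000102118), whose human product helps to bring the SMC5/6 complex to damaged DNA, was at 1.197 and 1.88 CPM in Cocktail 6. It ran from 5.40 to 27.6 CPM (median 11.0) in the other cocktails and stood at 2.07 and 3.01 CPM in the controls. The Cocktail 6 values rest on 4 and 6 reads. The log2 fold change was -2.90 (SE 0.56, edgeR adjusted p 0.0172), without overlap between the libraries. The uncharacterised si:dkeyp-98a7.3 (ENSDARG00000090929) had 2 and 1 reads in Cocktail 6. Pooled over libraries its rate was 0.0818 of that in the other cocktails, with an exact 95% interval of 0.0168 to 0.242 that covers counting error only. It was at 0.598 and 0.313 CPM in Cocktail 6, 2.48 to 11.2 CPM (median 4.80) in the other cocktails, and 1.15 and 1.205 CPM in the controls. Its call (edgeR adjusted p 0.0457) held in 10 of 33 alternative analyses and was lost with the replicate block.

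**Figure D1:**
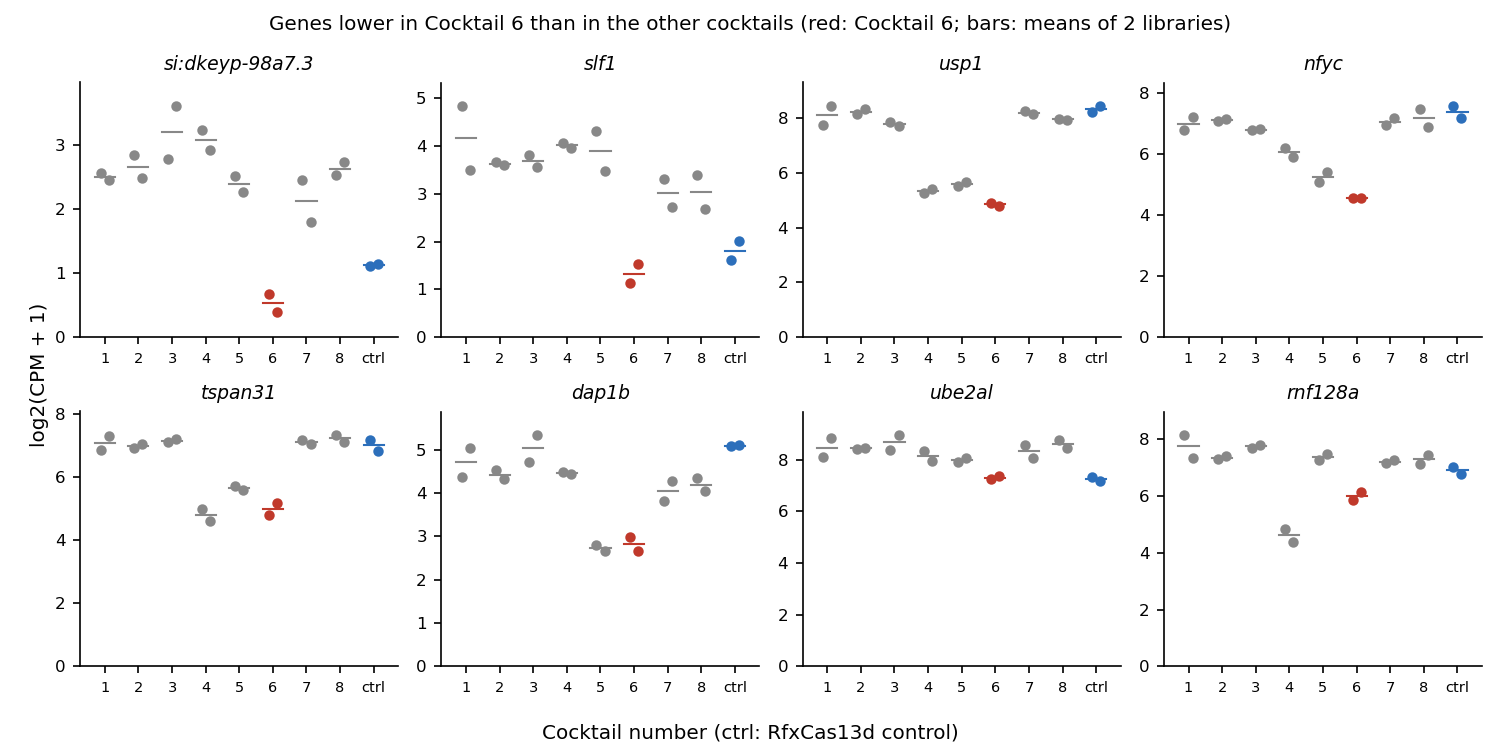
Levels of the 8 genes lower in Cocktail 6, as log2(CPM + 1) on the vertical axis, for each cocktail (1 to 8) and the RfxCas13d control (ctrl) on the horizontal axis; points are libraries and short lines the means of 2. Cocktail 6 is in red and the control in blue: usp1, nfyc, tspan31 and dap1b lie far below the control in Cocktail 6 and in Cocktail 4, 5 or both, whereas ube2al lies level with the control in Cocktail 6, slf1 and si:dkeyp-98a7.3 lie below it, and all 3 lie above it in all 14 other cocktail libraries.

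Counting all 8, 5 had both Cocktail 6 libraries below all 14 others, a pattern found in 1.45% of the genes tested. The comparison itself chose these genes, so that share is a background and not a test. Because Cocktails 4 and 5 were low for several of them, the reference was also formed without these 2 cocktails, an analysis added after the values were seen. It gave 9 lower genes. Log2 fold changes moved to -3.25 for usp1, -2.52 for nfyc, -2.16 for tspan31, -1.81 for dap1b and -1.49 for rnf128a. Cocktail 4, Cocktail 5 or both were low for each of these genes, so the larger decreases were fixed by the removal and are no support. The calls for slf1 and si:dkeyp-98a7.3 were lost in that analysis (edgeR adjusted p 0.0696 and 0.121), with fitted log2 values of -2.77 and -3.40.

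The analysis without Cocktails 4 and 5 also brought in fthl28, a ferritin heavy chain-like gene of iron storage. It was at 26.6 and 18.8 CPM in Cocktail 6, 26.4 and 20.0 CPM in Cocktail 5 and 74.0 and 79.2 CPM in the controls, with a log2 fold change of -1.40 (edgeR adjusted p 0.0472) against the remaining 10 cocktail libraries. The co-chaperone gene dnajc5ga was likewise added, at 206 and 165 CPM in Cocktail 6, above the controls at 136 and 103 CPM. The remaining 10 cocktail libraries ran from 319 to 529 CPM (median 410), with a log2 fold change of -1.17 (edgeR adjusted p 0.00805). The removed cocktails were near or below Cocktail 6, at 58.2 and 52.3 CPM in Cocktail 4 and 134 and 177 CPM in Cocktail 5. Against all 7 cocktails dnajc5ga was not called (log2 fold change -0.55, edgeR adjusted p 0.234). The last addition was cdca7b, a cell cycle-associated gene of chromatin regulation. It stood at 109 and 99.6 CPM in Cocktail 6, 10.6 and 8.36 CPM in Cocktail 4, 68.9 and 76.9 CPM in Cocktail 5, and 196 and 219 CPM in the controls. For cdca7b the levels thus ran in the order Cocktail 4, Cocktail 5, Cocktail 6 and then the rest, with no overlap between these 3 cocktails. Each added gene was near or below Cocktail 6 in Cocktail 4, Cocktail 5 or both. The added calls therefore depended on the removal and are no support either.

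Among the genes higher in Cocktail 6 were 3 members of the yolk syncytial layer list, mttp, gata5 and gata6. Both gata5 and gata6 are also in the mesendoderm and Nodal list. The gene mttp (ENSDARG00000008637) encodes the microsomal triglyceride transfer protein, which loads lipid onto lipoproteins made in the yolk cell. It was at 44.0 and 38.8 CPM in Cocktail 6, from 0 to 36.0 CPM (median 13.0) in the other cocktails, and at 182 and 192 CPM in the controls. Both Cocktail 6 libraries exceeded every other cocktail library, yet neither came near the control. The other cocktails were far apart, from 0.965 and 0 CPM in Cocktail 4 to 17.1 and 36.0 CPM in Cocktail 7. The log2 fold change was 2.54 (SE 0.38, edgeR adjusted p 0.00272) against the other cocktails and -2.17 (SE 0.52, adjusted p 0.015) against the control.

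The transcription factor gene gata5, which acts in endoderm and heart formation, was at 58.6 and 52.6 CPM in Cocktail 6, above all 14 other cocktail libraries (0.811 to 39.8 CPM, median 19.9) and below the controls (114 and 101 CPM). Its log2 fold change was 1.71 (SE 0.32, edgeR adjusted p 0.0166) against the other cocktails and -0.95 (SE 0.46, adjusted p 0.249) against the control. Its relative gata6 was at 45.5 and 50.4 CPM in Cocktail 6, against 1.08 to 55.1 CPM (median 22.1) in the other cocktails and 237 and 203 CPM in the controls. The ranges of gata6 overlapped, with 2 of the 14 other libraries above both from Cocktail 6. These were the 2 libraries of Cocktail 7, at 55.1 and 53.7 CPM. For gata6 the log2 fold change was 1.44 (SE 0.29, edgeR adjusted p 0.0226) against the other cocktails and -2.20 (SE 0.41, adjusted p 0.00173) against the control.

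Of 18 yolk syncytial layer genes listed, 11 were tested, of which these 3 were higher in Cocktail 6 and none was lower, beside 0.241% higher and 0.0551% lower over all genes tested. The list's median log2 fold change was 1.19, against 0.016 over all genes tested, and 10 of the 11 values were above 0, as were 7493 of all 14514. The mttp call was lost only without either Cocktail 6 library, but those of gata5 and gata6 were also lost without Cocktail 3, without Cocktail 4, without Cocktails 4 and 5 and in limma, with edgeR adjusted p from 0.0616 to 0.122 in the first 3 of these, and that of gata6 also with the 16 cocktail libraries alone. Members that passed no threshold included hnf4a, a regulator of lipid metabolism (65.5 and 84.0 CPM in Cocktail 6, median 46.7 in the other cocktails, 235 and 235 in the controls), and mxtx2, which acts at the head of this lineage in zebrafish (298 and 333 CPM, median 330, and 231 and 243). The apolipoprotein markers apoa1a, apoa1b and apobb.1 had no reads in either Cocktail 6 library. Of 9 markers of this layer, 1 to 4 had no reads in each of the other cocktail libraries, and 1 or 2 in each control library. In libraries of whole embryos, fewer cells of a type and less RNA per cell cannot be told apart. The summed level of 9 markers of this layer was 533 to 599 CPM in Cocktail 6, 4.05 to 898 CPM (median 485) in the other cocktails and 1065 to 1107 CPM in the controls. Those ranges overlapped between cocktails, and all cocktail libraries were below the control. Of these sums, mxtx2 alone made up 298 and 333 CPM in Cocktail 6, where it was above the controls.

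Genes of the enveloping layer also had Cocktail 6 between most other cocktails and the control. The type I keratin gene cyt1 was the called member. It stood at 16.8 and 6.27 CPM in Cocktail 6, 0 to 7.14 CPM (median 1.24) in the other cocktails, and 43.8 and 45.2 CPM in the controls. Its log2 fold change was 3.00 (SE 0.47, edgeR adjusted p 0.00238) against the other cocktails and -1.94 (SE 0.63, adjusted p 0.0658) against the control. The 2 Cocktail 6 libraries differed from each other here, and the lower of them fell inside the range of the other cocktails.

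Of 25 enveloping layer genes listed, 22 were tested; 1 was called higher by edgeR and none lower (0.241% and 0.0551% over all genes), and the median log2 fold change was 0.96 with 20 of 22 values above 0, beside 7493 of all 14514. The abundant keratin krt4 was at 561 and 634 CPM in Cocktail 6, 0 to 680 CPM (median 327) in the other cocktails and 1898 and 1891 CPM in the controls, without passing the test (adjusted p 0.747 in edgeR). The desmosomal linker evpla was at 5.09 and 11.0 CPM, 0.270 to 12.7 CPM (median 2.89), and 100 and 100 CPM in the same order; it missed the threshold in edgeR (adjusted p 0.112) and passed it in DESeq2 (log2 fold change 1.70, adjusted p 0.044). Against the control, 5 of the 22 were lower in Cocktail 6 and none higher, beside 1.14% and 4.61% over all genes. Leaving out Cocktails 1 and 3, whose replicates lay furthest apart, lowered the list's median against the other cocktails to 0.65 and that of the yolk syncytial layer list to 0.69. The summed level of 18 enveloping layer markers was 2963 to 3223 CPM in Cocktail 6, 33.0 to 3543 CPM (median 2095) in the other cocktails and 7450 to 7924 CPM in the controls, and the marker znf750 had no reads in Cocktail 6. By library, 1 to 7 of the 18 markers had no reads in the other cocktails, and none lacked reads in the controls.

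**Figure D2:**
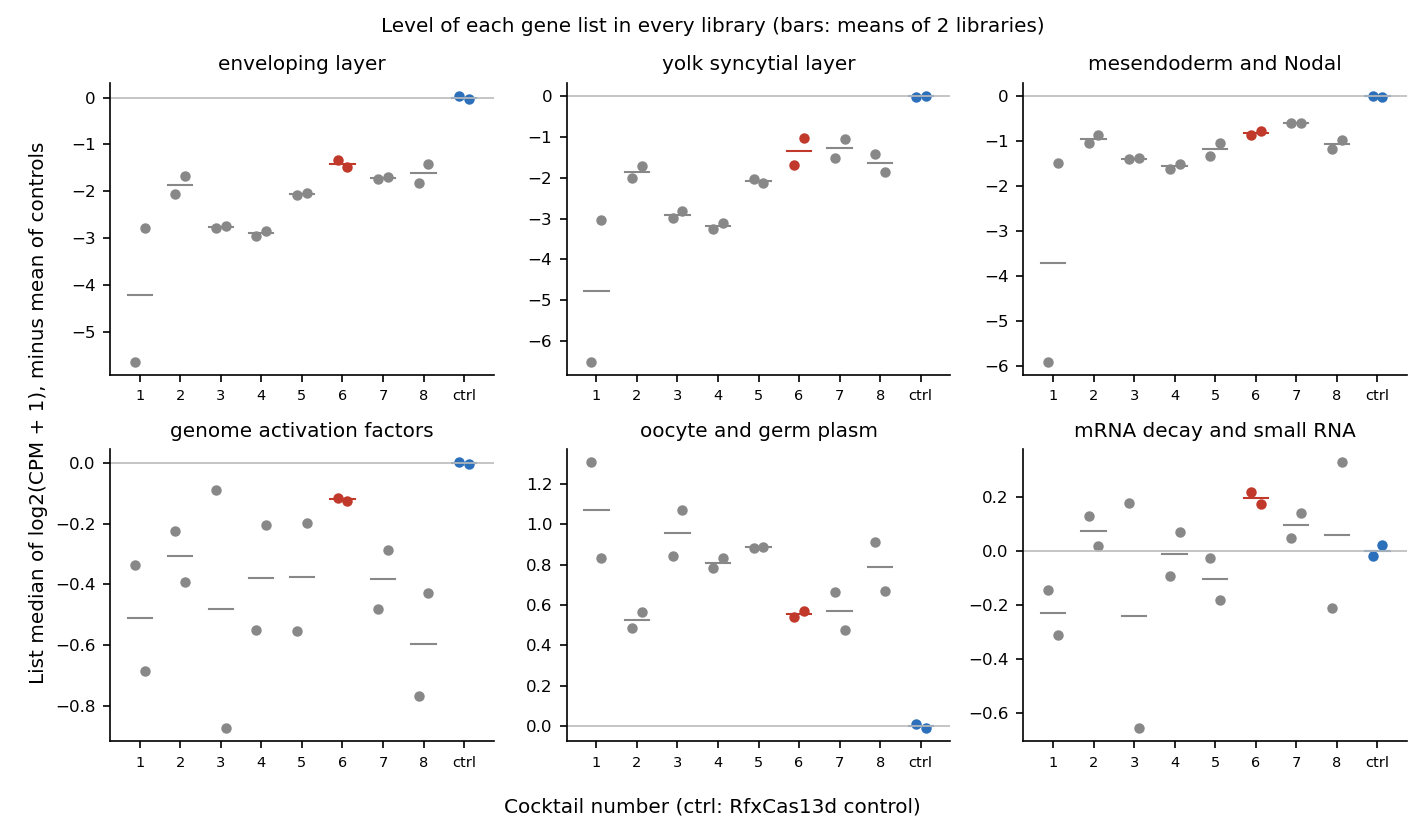
Median over each gene list of log2(CPM + 1), relative to the mean of the controls (0 on the vertical axis), for every library of each cocktail and the control (ctrl) on the horizontal axis; points are libraries and short lines the means of 2. Cocktail 6 (red) has the highest cocktail mean for the enveloping layer (-1.42) and is second to Cocktail 7 (-1.27) for the yolk syncytial layer (-1.35), while the first library of Cocktail 1 lies far below all others in both.

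Most of the other higher genes had the same order of levels, with the other cocktails lowest, Cocktail 6 in the middle and the control highest. The steroid dehydrogenase gene hsd17b14 was at 26.9 and 32.0 CPM in Cocktail 6, 0.270 to 21.1 CPM (median 12.9) in the other cocktails and 115 and 94.3 CPM in the controls. Its log2 fold change was 2.29 (SE 0.29, edgeR adjusted p 3.63e-04) against the other cocktails and -1.83 (SE 0.41, adjusted p 0.00741) against the control. The 3 groups of libraries did not overlap. The LIM-domain gene znf185, whose product binds actin, was similar, at 35.6 and 38.2 CPM in Cocktail 6, 0.540 to 32.1 CPM (median 9.69) in the other cocktails and 132 and 146 CPM in the controls (log2 fold change 2.21, SE 0.33, edgeR adjusted p 0.00172).

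The glycosyltransferase gene b3gnt5a stood at 20.3 and 26.6 CPM in Cocktail 6, 0 to 21.8 CPM (median 6.35) in the other cocktails and 117 and 111 CPM in the controls, with a log2 fold change of 3.24 (SE 0.45, edgeR adjusted p 9.67e-04). It overlapped in 1 library of the others. The proline transporter gene slc6a7 was at 19.4 and 14.4 CPM, 0 to 13.0 CPM (median 3.90) and 51.6 and 39.5 CPM in the same order, and the potassium channel gene kcnk1a at 13.8 and 12.8, 0 to 11.8 (median 4.04) and 41.7 and 39.8 CPM. For both of these every Cocktail 6 library was above all other cocktail libraries and below both controls. The enzyme gene GFUS, whose product makes GDP-fucose, was at 46.4 and 42.6 CPM in Cocktail 6, 1.08 to 37.9 CPM (median 17.2) in the other cocktails and 99.1 and 111 CPM in the controls. The fatty acid hydroxylase gene fa2h was at 50.3 and 44.5 CPM, 2.16 to 34.4 CPM (median 18.5) and 102 and 86.5 CPM. The call was lost in 18 of 33 alternative analyses for fa2h and in 8 for GFUS.

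Further genes of this kind were the secreted Wnt inhibitor gene notum1a (37.4 and 38.5 CPM in Cocktail 6, 0 to 60.9 with a median of 13.99 in the other cocktails, 82.2 and 118 in the controls) and the organic anion transporter gene slco1d1 (2.69 and 5.64 CPM, 0 to 4.47 with a median of 0.479, and 32.7 and 35.2). The histone demethylase gene kdm2ba was at 52.1 and 47.9 CPM, with 6.56 to 65.8 CPM (median 25.4) in the other cocktails and 116 and 86.8 CPM in the controls. These ranges overlapped. For notum1a the means of Cocktails 7 and 8, 45.7 and 45.8 CPM, were above both Cocktail 6 libraries. For kdm2ba the 2 libraries of Cocktail 7, at 52.9 and 65.8 CPM, were above both. The call was lost in 16 of 33 alternative analyses for notum1a, in 11 for kdm2ba and in 6 for slco1d1. The remaining ones were the microtubule-end binding gene camsap2a, the finTRIM gene ftr83, zgc:153018, zgc:110333, pkdccb, ponzr5, abtb2b, si:ch211-133n4.4 and zgc:100868. Of these, camsap2a stood at 39.2 and 47.6 CPM in Cocktail 6 and 77.6 and 94.6 in the controls. In that order ftr83 stood at 56.5 and 73.9, and 171 and 153, and zgc:153018 at 79.0 and 89.0, and 303 and 288. Next, zgc:110333 stood at 20.0 and 21.3, and 56.4 and 74.7, and pkdccb at 12.3 and 5.01, and 18.4 and 15.4. The values of ponzr5 were 7.78 and 8.77, and 24.7 and 23.5, and of abtb2b 4.49 and 6.89, and 12.7 and 14.2. Those of si:ch211-133n4.4 were 16.5 and 17.5, and 26.5 and 37.4, and of zgc:100868 4.49 and 4.07, and 7.83 and 7.83. Other cocktails overlapped Cocktail 6 for zgc:153018 (up to 99.1 CPM), camsap2a (49.7), zgc:110333 (27.2), ftr83 (64.0), ponzr5 (8.70) and pkdccb (6.33). They did not for abtb2b, si:ch211-133n4.4 and zgc:100868. Of the 33 alternatives, 20 lost the call for pkdccb, 19 for ftr83, and 17 each for camsap2a and si:ch211-133n4.4. The call was lost in 9 each for ponzr5 and zgc:100868, 8 for abtb2b, 5 for zgc:153018 and 1 for zgc:110333. Over all 35 higher genes, the mean of Cocktail 6 lay between that of the other cocktails and that of the control in 28, against 51.5% of the genes tested. Both Cocktail 6 libraries were below both controls in 26, against 30.0% of the genes tested, and 8 of the 35 were called lower than the control, against 1.14%. Both were above all 14 other cocktail libraries in 16, against 1.65%. These comparisons share their Cocktail 6 libraries, and the choice of the 35 used them, so the shares are a description.

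**Figure D3:**
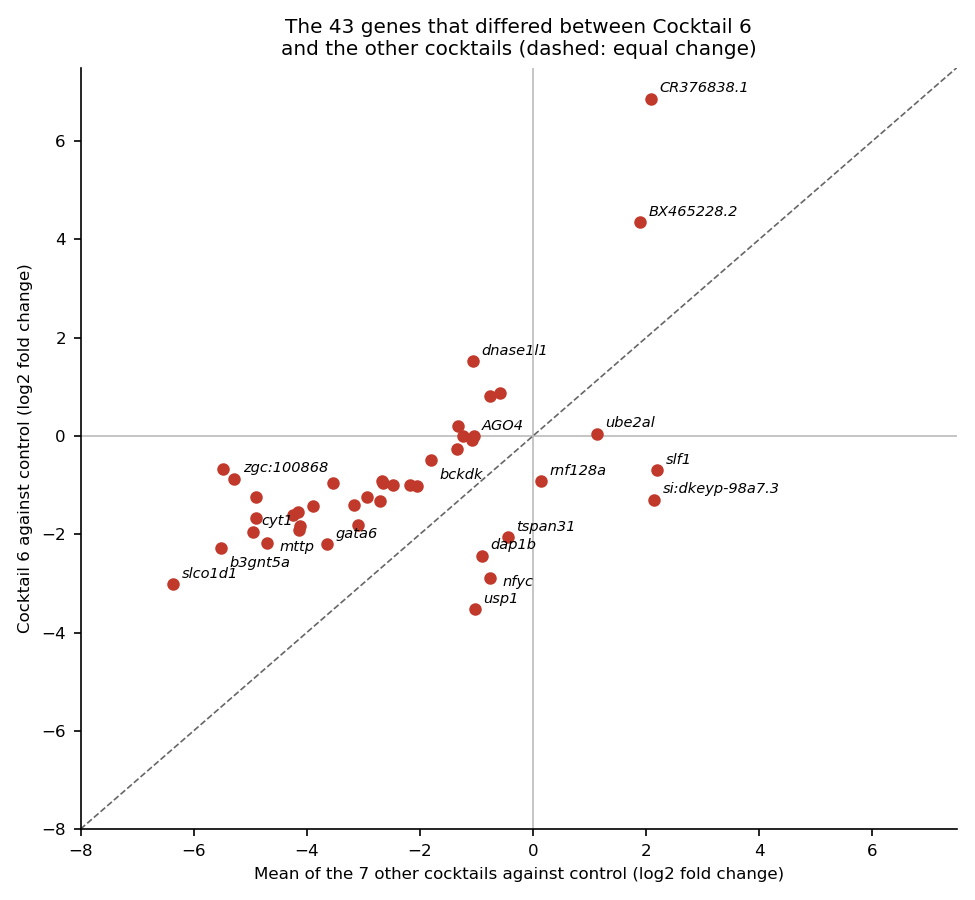
Fitted log2 fold change against the control for the 43 genes, with the mean of the 7 other cocktails on the horizontal axis and Cocktail 6 on the vertical axis; the dashed line marks equal change, and both axes share the control libraries. Higher genes sit above the line, mostly with both values negative, and usp1, nfyc, tspan31 and dap1b sit below it at -3.52, -2.88, -2.05 and -2.43 on the vertical axis; the position of CR376838.1 rests on 0 reads in the controls and is no measure of its size.

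A second kind of higher gene stood near the control in Cocktail 6, though bckdk was at 0.709 of the control mean. Of these, bckdk and papolg were far lower in some of the other cocktails than in the rest, and tgm2b was low in only some. For bckdk, papolg, AGO4 and hnrnpul1 all 14 other cocktail libraries lay below both controls, though to different degrees. The kinase gene bckdk, which restrains the breakdown of branched-chain amino acids, was at 369 and 406 CPM in Cocktail 6 and 542 and 551 CPM in the controls. The other cocktails ran from 18.6 to 398 CPM (median 284), and the low end was Cocktail 2, with a mean of 30.7 CPM, and Cocktail 3, with 29.2 CPM. Against those 2 cocktails the log2 fold change was 3.65 (SE 0.28, edgeR adjusted p 8.60e-08) and 3.73 (SE 0.29, adjusted p 5.97e-08), and against Cocktail 7 it was 0.09 (SE 0.25). The call against the mean of all 7 (1.30, SE 0.17, adjusted p 4.26e-04) thus rested on a few groups. Without Cocktail 2 or without Cocktail 3 the value was 0.91 or 0.89, short of 2-fold.

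The poly(A) polymerase gene papolg was at 310 and 320 CPM in Cocktail 6 and 369 and 388 CPM in the controls. It was lowest in Cocktail 1 (mean 32.3 CPM), Cocktail 3 (52.3) and Cocktail 2 (120), and the other 4 cocktails lay between 275 and 313 CPM. Its log2 fold change of 1.08 (SE 0.17, edgeR adjusted p 0.00238) fell short of 2-fold without Cocktail 1 (0.71) or without Cocktail 3 (0.83). Without both of these cocktails it was 0.34 and the call was lost (edgeR adjusted p 0.12). The argonaute gene AGO4, which binds small RNAs, was at 183 and 168 CPM in Cocktail 6 and 182 and 172 CPM in the controls, with 18.9 to 142 CPM (median 113) in the other cocktails. Cocktail 8 was its low group, at a mean of 20.7 CPM, and without Cocktail 8 the call was lost (log2 fold change 0.70). It was also lost without the second library of Cocktail 4, without the first of Cocktail 5, with the 16 cocktail libraries alone, in limma, and without either Cocktail 6 library.

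The RNA-binding gene hnrnpul1 matched the control in Cocktail 6, at 74.5 and 75.5 CPM against 77.9 and 71.1, and ran from 12.8 to 70.8 CPM (median 35.2) in the other cocktails. It was called higher than in Cocktails 1, 3 and 4. The transglutaminase gene tgm2b was also at the control level, at 120 and 140 CPM against 146 and 129, with 23.5 to 197 CPM (median 51.9) elsewhere. Cocktail 7, at 150 and 197 CPM, was above Cocktail 6 for tgm2b, and Cocktail 8 stood at 127 and 148 CPM.

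A small remaining set was above the control in Cocktail 6. The deoxyribonuclease gene dnase1l1 was at 26.6 and 16.3 CPM in Cocktail 6, 0.811 to 9.11 CPM (median 4.50) in the other cocktails and 7.60 and 7.23 CPM in the controls. Its log2 fold change was 2.58 (SE 0.43, edgeR adjusted p 0.00518) against the other cocktails and 1.53 (SE 0.67, adjusted p 0.186) against the control. The unannotated BX855614.4 (30.5 and 33.5 CPM, 3.94 to 24.9 with a median of 13.5, and 15.4 and 19.6) and zgc:136858 (18.3 and 21.0 CPM, 2.63 to 11.6 with a median of 5.90, and 8.52 and 13.9) were also above both controls. The call was lost in 19 of 33 alternative analyses for zgc:136858, in 13 for BX855614.4 and in 3 for dnase1l1. Of the 35 genes, 5 had both Cocktail 6 libraries above both controls, against 31.5% of the genes tested. They include CR376838.1, which passed the low-count filter only through Cocktails 5 and 6.

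**Figure D4:**
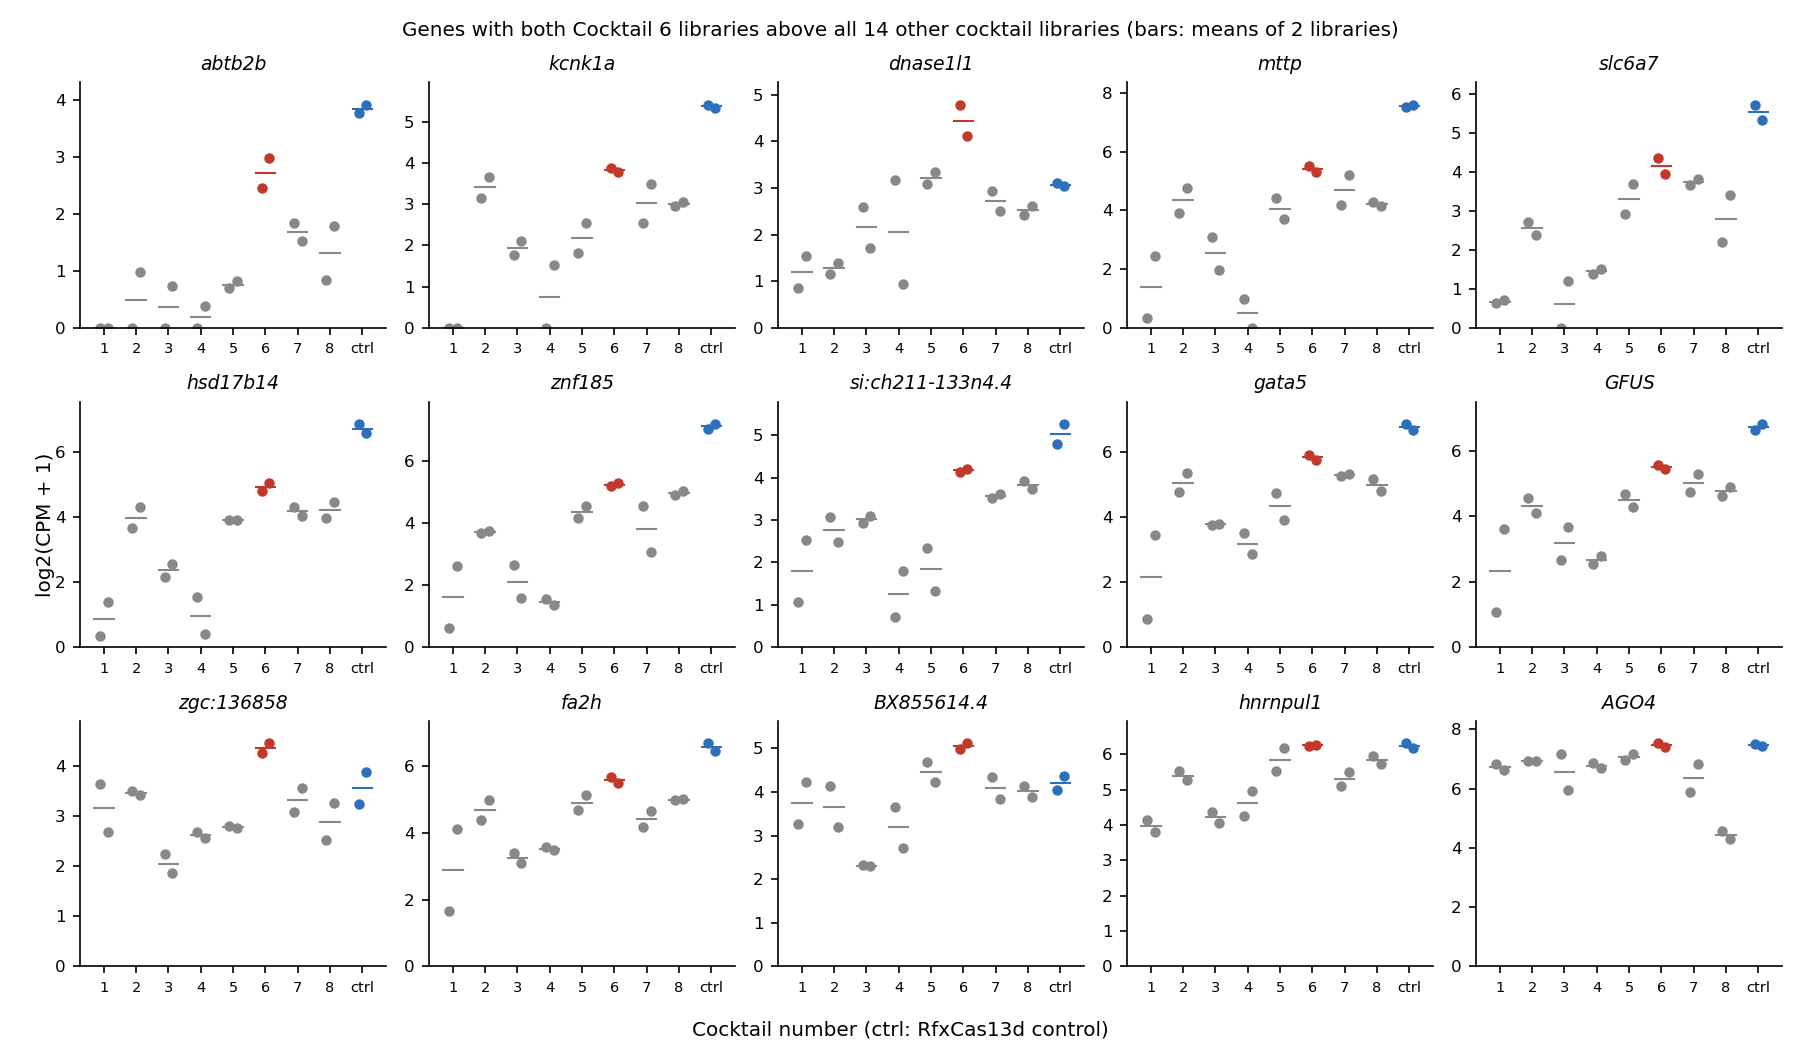
Levels of the 15 higher genes with a mean of at least 5 CPM whose 2 Cocktail 6 libraries both exceeded all 14 other cocktail libraries, as log2(CPM + 1) on the vertical axis, for each cocktail (1 to 8) and the control (ctrl) on the horizontal axis; points are libraries and short lines the means of 2. In 10 of the panels the control (blue) lies above Cocktail 6 (red); AGO4 and hnrnpul1 lie level with the control, and dnase1l1, BX855614.4 and zgc:136858 lie above it.

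Some of the called genes divided the cocktails in other ways. BX465228.2, the higher gene that was also called higher than the control, was at 13.5 and 10.0 CPM in Cocktail 6, a mean of 10.2 CPM in Cocktail 5, and at most a mean of 3.46 CPM in the remaining cocktails, with 0.230 and 0.904 CPM in the controls. CR376838.1 had 8 and 20 reads in Cocktail 6 (2.39 and 6.27 CPM), was at 5.35 and 2.02 CPM in Cocktail 5, had no reads in 9 of the 14 other libraries, and had none in either control. Outside Cocktails 5 and 6 no library exceeded 0.490 CPM, so CR376838.1 passed the low-count filter only through the cocktails where it was high. Its call is therefore a description and no support for a difference. CT030712.1, at 3.59 and 3.13 CPM in Cocktail 6 and 3.78 and 3.54 CPM in Cocktail 5, was at 0 in 10 of the 14 and at 7.14 and 3.61 CPM in the controls. The call was lost in 22 of 30 alternative analyses for CR376838.1, 10 of 32 for CT030712.1 and 4 of 33 for BX465228.2. For these 3 genes Cocktails 5 and 6 had similar values, as they did for the low levels of dap1b and fthl28. CABZ01065076.1 stood at 24.2 and 24.1 CPM in Cocktail 6 and at mean levels of 32.5, 46.9 and 42.8 CPM in Cocktails 5, 7 and 8, but at 2.79, 3.60, 2.14 and 2.05 CPM in Cocktails 1 to 4. Whether clutch or batch moved with these values was not tested, since the labels give neither.

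The fitted fold change is a mean over log values, so cocktails near 0 weigh heavily in it. For zgc:100868, with no reads in 8 of the 14 other libraries, it was 4.42 (SE 0.88), or 21.3-fold, where the ratio of mean levels was 7.73. For mttp the fitted value of 5.80-fold compares with a ratio of means of 3.27, and for b3gnt5a 9.43-fold with 3.10. For usp1 the order was turned, with a fitted 5.65-fold decrease and a ratio of means of 7.28.

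A further 8 genes passed the adjusted p without reaching 2-fold, which brought the share called without a fold minimum to 0.0689% lower and 0.282% higher. The lower ones were sox19b, the maternal SoxB1 factor named above, and plpp2b, a phospholipid phosphatase. The level of sox19b was 163 and 141 CPM in Cocktail 6, 179 to 478 CPM (median 312) in the other cocktails and 126 and 88.3 CPM in the controls. All 14 other cocktail libraries were above Cocktail 6, and both controls were below it. Its log2 fold change was -0.95 (SE 0.16, edgeR adjusted p 0.00562) against the other cocktails and 0.50 (adjusted p 0.141) against the control. The higher ones were tarbp2, a partner of Dicer (0.90), the ETS-domain repressor erf (0.95), the chromatin cofactor hcfc1a (0.92), the zinc finger factor sall4 (0.89), the phosphatase subunit ppp4r2a (0.77) and the transcriptional corepressor drap1 (0.64). Of these, drap1 was at 515 and 497 CPM in Cocktail 6, 110 and 112 in Cocktail 1 and 699 and 704 in the controls. In Cocktail 6, Cocktail 3 and the controls, tarbp2 was at 248 and 236, 28.8 and 34.8, and 308 and 306 CPM. In the same order ppp4r2a was at 401 and 500, 86.8 and 65.0, and 421 and 455 CPM. The pass was lost in 21 of 33 alternative analyses for plpp2b, 10 for sall4 and 5 each for drap1 and ppp4r2a. It was lost in 4 for hcfc1a, 3 each for tarbp2 and erf, and 2 for sox19b.

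Set against each other cocktail singly, Cocktail 6 was closest to Cocktail 5, with 1 gene lower (0.00689% of the genes tested) and 5 higher (0.0344%). It was furthest from Cocktail 1, with 105 lower (0.723%) and 121 higher (0.834%), and Cocktail 3, with 56 lower (0.386%) and 102 higher (0.703%), which were also the cocktails with the widest gap between replicates. Cocktail 4 gave 17 lower (0.117%) and 62 higher (0.427%), and Cocktail 2 gave 9 (0.062%) and 13 (0.0896%). Cocktail 7 gave 5 lower (0.0344%) and 11 higher (0.0758%), and Cocktail 8 gave 7 (0.0482%) and 8 (0.0551%). No gene was called against all 7, 4 genes were lower against at least 5 cocktails, and no gene was higher against more than 4. The 4 were nfyc, usp1, tspan31 and rnf128a. A call against 1 cocktail and none against another does not show that those cocktails differ.

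The higher genes with the smallest p in these single comparisons, chosen after the values were seen, were mostly near the control level in Cocktail 6 and low in 1 or more of the others. Against Cocktail 4 they were tia1, cdca7b and cstf2. The RNA-binding gene tia1 was at 398 and 412 CPM in Cocktail 6, 473 and 496 CPM in the controls and 28.9 and 16.7 CPM in Cocktail 4. The cleavage stimulation factor gene cstf2 was at 203 and 207 CPM, 295 and 289 CPM, and 7.08 and 15.2 CPM in the same order. In neither case did the groups overlap.

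Against Cocktail 8 the lead gene was rbm7, a cofactor of the nuclear exosome, at 243 and 206 CPM in Cocktail 6, 244 and 252 CPM in the controls and 26.9 and 25.5 CPM in Cocktail 8. Against Cocktail 7 it was ilf3a, which encodes a double-stranded RNA-binding protein, at 262 and 314 CPM, 284 and 334 CPM, and 37.3 and 59.9 CPM. For both genes the 2 libraries of that cocktail lay below Cocktail 6 and the control, without overlap.

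Against Cocktail 5 the leading higher genes were ctdspl3, a phosphatase gene (115 and 117 CPM in Cocktail 6, 149 and 153 in the controls, 23.3 and 15.9 in Cocktail 5), the splicing gene rbm25b (108 and 89.3, 205 and 184, and 15.4 and 11.4) and the histone methyltransferase subunit rbbp5 (78.4 and 81.5, 86.9 and 85.2, and 9.76 and 12.6). The 1 gene lower than in Cocktail 5 was rnf128a. Against Cocktail 1 the leading higher genes were drap1, ppp4r2b and papolg, against Cocktail 2 bckdk, tarbp2 and alg3, and against Cocktail 3 tarbp2, bckdk and ppp4r2a. Of these, ppp4r2b was at 525 and 521 CPM in Cocktail 6, above the controls (374 and 379), and at 95.1 and 51.2 CPM in Cocktail 1. For alg3 the levels were 203 and 207 CPM in Cocktail 6, 213 and 193 in the controls, and 57.5 and 65.0 in Cocktail 2.

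**Figure D5:**
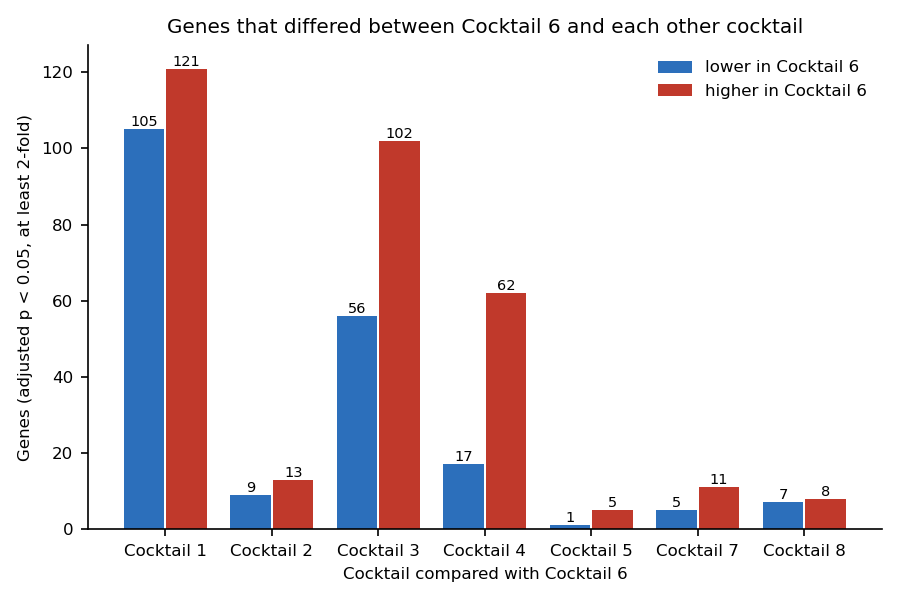
Number of genes on the vertical axis that were lower (blue) or higher (red) in Cocktail 6 than in each other cocktail on the horizontal axis, at an edgeR adjusted p under 0.05 and at least 2-fold. Cocktails 1, 3 and 4 give the longest bars (up to 121 genes), and Cocktail 5 the shortest, with 1 lower and 5 higher.

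Against the control, 166 genes were lower in Cocktail 6 (1.14% of the genes tested) and 669 higher (4.61%). Without the first or second Cocktail 6 library these became 28 and 342, or 32 and 334, and without the first or second control library 42 and 288, or 55 and 267. Without the first or second library of Cocktail 1, 378 or 349 were lower. The mean of the other cocktails, which is measured against the same 2 control libraries, gave 1089 lower (7.5%) and 1489 higher (10.3%); that contrast averages 14 libraries and not 2, so the counts are not a comparison of effect. After usp1, nfyc and tspan31, the lower gene with the smallest p among those described here was hsd17b12a, an enzyme of fatty acid elongation (287 and 309 CPM in Cocktail 6, 861 and 747 in the controls, median 257 in the other cocktails). For hsd17b12a Cocktail 6 lay within the range of the other cocktails. Among the higher genes the smallest p-values were those of hadhab, an enzyme of fatty acid oxidation (212 and 195 CPM in Cocktail 6, 36.2 and 34.6 in the controls, median 187 in the other cocktails), and pik3r3b, a regulatory subunit of PI3-kinase (168 and 185 CPM, 21.9 and 33.1, median 171), again within the range of the other cocktails.

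Germ plasm and oocyte transcripts, supplied by the mother, were not called different between Cocktail 6 and the other cocktails in any of 26 genes. Over all genes tested, 0.0551% were lower and 0.241% higher. The absence of a call in so short a list is near that share and is no result about the list. The list's median log2 fold change was -0.22. The germ plasm organiser buc was at 731 and 899 CPM in Cocktail 6, 633 to 1302 CPM (median 988) in the other cocktails and 191 and 171 CPM in the controls. The oocyte gene btg4, a deadenylase adaptor, was at 145 and 117 CPM, 145 to 584 CPM (median 231), and 47.0 and 43.7 CPM (adjusted p 0.135 in edgeR against the other cocktails). Both stood above the control in every cocktail library. Against the control, 5 of the 26 were higher in Cocktail 6 and none lower (4.61% and 1.14% over all genes), with a median of 0.52, beside 0.75 for the mean of the other cocktails.

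In the lists of early embryonic patterning and genome activation genes, gata5 and gata6 were the members called at 2-fold, and sox19b, described above, passed the adjusted p short of 2-fold. The mesendoderm and Nodal list had those 2 called of 15 tested and a median of 0.45. The ventral BMP and Wnt list (10 tested, median 0.44), the dorsal organizer list (12, median 0.40) and the ubiquitous early zygotic list (21, median 0.23) had no called gene. Among the genome activation factors, none of 14 was called at 2-fold and the median was 0.22. Over all genes tested, 0.0551% were lower and 0.241% higher, so a list without a call was near that share. The level of pou5f3 was 1316 and 1347 CPM in Cocktail 6, 643 to 1518 CPM (median 1072) in the other cocktails and 2478 and 2529 CPM in the controls, and nanog was at 1994 and 1839, 1227 to 2185 (median 1923) and 1606 and 1538 CPM in the same order.

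Between Cocktail 6 and the other cocktails, 0.0551% of all genes tested were lower and 0.241% higher. Near that share, lists of stress and housekeeping genes also held no called gene. Their median log2 fold changes were 0.02 for the p53 pathway (19 tested), 0.01 for the unfolded protein and integrated stress responses (16), 0.14 for heat shock (14), -0.15 for interferon and RNA sensing (7), -0.11 for the cell cycle (32), 0.003 for cytosolic ribosomal proteins (77) and 0.09 for mitochondrially encoded genes (13). The argonaute gene AGO4, called higher above, was not in the list of mRNA decay and small RNA genes. The Dicer partner tarbp2 passed the adjusted p short of 2-fold. The list had none called of 26 and a median of 0.22. Its largest values were those of the exonuclease gene xrn1 (81.1 and 89.3 CPM in Cocktail 6, median 47.6 in the other cocktails, 87.1 and 91.0 in the controls, adjusted p 0.123) and the argonaute partner tnrc6a (220 and 200 CPM, median 128, 125 and 137, adjusted p 0.199), whose Cocktail 6 libraries both exceeded the other 14. Of the later tissue and blood markers only 2 were tested, and 8 of 14 markers summed for this purpose had no reads in Cocktail 6. In the controls 10 of the 14 had none, and 3 had none in any of the other cocktail libraries.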

How the data were processed

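The authors deposited, for each library, raw gene counts (whole reads, not normalized) and TPM, a length-scaled abundance whose unit was inferred from the values. Libraries were made with Nextera XT, which marks no strand, so a gene and its antisense or overlapping partner cannot be told apart, and near-identical copies are uncertain. The submitters' processing notes name bcl2fastq 2.20 and the build danRer11. Aligner, counter and annotation release: not given in the sources used here. The label field for cell line holds the stage and that for cell type the treatment.

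Groups came from sample titles. The 4 rows naming no gene (22.6% to 55.5% of reads) were left out. Counts were scaled by TMM, filtered with filterByExpr (minimum count 10) and fitted in edgeR 4.0.16 (R 4.3.3, robust quasi-likelihood, common biological coefficient of variation 0.280) with 1 coefficient per group over all 18 libraries. The scripts were tested on simulated data with known changes. The contrasts were Cocktail 6 minus the mean of the 7 others, minus the control, and minus each other cocktail. They share libraries. Shares of reads were compared by exact permutation of single libraries, without regard to cocktail. Alternatives used DESeq2 1.42.0, RLE factors, limma 3.58.1 on log2(TPM + 1) for genes with TPM of at least 1 in 2 libraries, other fold minimums, no filter, a replicate block, fewer reference groups and each library left out. Fits with libraries or groups left out reran filterByExpr, so the genes they tested could differ from those of the main fit.

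Replicate numbers were not used to pair the samples in the main fit. Same-numbered deviations correlated above 0.1 in 2 of 36 pairs of groups (-0.202 to 0.156). These correlations cannot show whether same-numbered libraries shared a clutch or injection, which the labels do not give. Replicate libraries differed by more than counting error (chi-square per degree of freedom at least 3.45), so none was merged in the fits. The rate of si:dkeyp-98a7.3, a gene chosen by the same comparison, did pool libraries and leaves this spread out. Intervals cover counting error only.

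Named genes were called genes with both Cocktail 6 libraries beyond all 14 others and, in whichever group was higher, a mean of 5 CPM or more: up to 15 lower ones also below the control, 8 other lower ones and 15 higher ones, plus from each of 17 gene lists up to 4 called members or the 2 most abundant. This gave 5 lower and 15 higher genes. The other 23 called genes, the list members beyond that rule, the genes under 2-fold and the leading genes of single comparisons were chosen after their values were seen. Genes, lists and groups were chosen with earlier results of these data known.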

Additional observations from a re-analysis of the deposited data

How the results depend on the processing

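No value against the other cocktails turned sign for any of the 43 genes, and the calls for usp1 and nfyc held in all 33 alternatives. Those for ube2al and mttp were lost only without 1 of the Cocktail 6 libraries. With 2 libraries in the group, calls depend on both. The lower and higher counts, 8 and 35, ranged from 2 to 43 and from 2 to 324 when single libraries were left out. The lows came without the first and the second Cocktail 6 library, and both highs without the second library of Cocktail 1. Genes near 0 in the reference are limited by depth. With the replicate block the counts were 6 and 31. A 3-fold minimum gave 5 and 21, and no filter 27 and 169. DESeq2 gave 17 lower, limma on TPM 16 higher, and the 16 cocktail libraries alone 16 higher. Without Cocktail 1, 64 genes were higher; without Cocktail 3, 5 were lower and 17 higher; without Cocktail 4, 15 were higher; without Cocktails 4 and 5, 21 were higher; and without Cocktail 7, 15 were lower. The cause was not tested. Leaving out Cocktails 2, 4, 5, 7 or 8, 1 and 3 together, or 4 and 5 together was chosen after seeing the data.

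The enveloping layer median of 0.96 was 0.71 with cocktail libraries alone. It was 0.77, 0.85, 0.77, 1.13 and 1.09 without Cocktail 1, 3, 4, 7 and 8, 0.65 without Cocktails 1 and 3, 0.82 without 4 and 5, and 0.67 to 1.70 with single libraries left out. The yolk syncytial median of 1.19 was 0.69 without Cocktails 1 and 3 and ranged from 0.68 to 1.70. The differences in unmapped share, -9.32 to -9.23, could not reach p under 0.05 with 1 Cocktail 6 library, and those in mitochondrial share were -0.393 to -0.344. Against the control, 166 lower and 669 higher genes became 89 and 321 at 3-fold and 652 and 1098 with only those 4 libraries. There were 362 lower without a filter and 262 lower with DESeq2. Leaving out single libraries gave 28 to 378 lower and 267 to 867 higher.

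Small uncalled values against the control turned sign for 9 genes. Under RLE factors they were -0.014 for ube2al, -0.020 for ppp4r2a and -0.052 for hnrnpul1, and DESeq2 gave -0.014, -0.020 and -0.052. Without the second control library they were -0.022 for ube2al, 0.019 for hcfc1a and -0.053 for hnrnpul1. Without the first they were -0.011 for ppp4r2a, 0.017 for tgm2b, -0.16 for CABZ01065076.1 and 0.036 for AGO4. Without a Cocktail 6 library they were -0.12 for ppp4r2a, 0.035 for tgm2b and 0.053 for AGO4. Limma gave 0.042 for hcfc1a, 0.13 for plpp2b, 0.14 for erf, 0.15 for tgm2b and 0.16 for AGO4. For hnrnpul1 no filter gave -0.0044 and leaving out the first library of Cocktail 1 gave -0.0081, and for AGO4 only those 4 libraries gave 0.0026. With single libraries left out, values rose to 0.12 for ube2al, 0.20 for ppp4r2a and 0.080 for hnrnpul1, and fell to -0.28 for hcfc1a, -0.19 for tgm2b and -0.067 for AGO4.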
